A study of Saccharomyces cerevisiae with 36 samples.

Results

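The genes described here are the 32 nuclear genes of budding yeast that encode subunits of respiratory complexes II, III and IV, the ATP synthase (complex V) and cytochrome c. The list is one of gene symbols by complex, its rule uses no measured value, and each had 1 probe among the 6388 yeast probes of the array. Complex II contributed 4 genes, complex III 9, complex IV 8, complex V 10, and cytochrome c 1 gene (CYC1). Yeast has no proton-pumping complex I; electrons from NADH enter through single-subunit dehydrogenases, pass from ubiquinone through complex III, cytochrome c and complex IV to oxygen, and the proton gradient so formed drives the ATP synthase. On glucose most ATP comes from fermentation and the respiratory genes are repressed, and when glucose runs out they are induced, in large part through the Hap2/3/4/5 activator, whose Hap4 subunit is limiting.

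The study profiled 18 conditions on 36 two-colour arrays, 2 arrays per strain from independent cultures and with the dyes exchanged, each against one wild-type reference RNA pool (BY4742, MATα). All values are log2 strain/reference ratios, and since they are relative to the average of each array, total mRNA was not measured, and fewer cells and less RNA per cell cannot be told apart. The 7 mid-log NuB4 strains were derived from BY4742 and carried deletions of HAT1, HAT2 or HIF1, singly (hat1Δ, hat2Δ, hif1Δ), in pairs (hat1Δhat2Δ, hat1Δhif1Δ, hat2Δhif1Δ) or all together, made with drug-resistance cassettes and grown in synthetic medium with glucose. Hat1 and Hat2 form the HAT-B histone acetyltransferase and Hif1 joins them in the nuclear NuB4 complex. The 3 growing RITE strains, also with Cre-EBD78 and bar1Δ, had 1 of their copies of the histone H3 and H4 genes deleted, and their H3 was untagged, HA-tagged or T7-tagged. The 8 starved (G0) strains came from 1 parent with a recombinase-inducible tag cassette on H3, a constitutive Cre-EBD78 recombinase, bar1Δ and 1 histone gene pair deleted, and were G0 WT, G0 hat1Δ, G0 hat2Δ, G0 hif1Δ, G0 hat1Δhif1Δ, G0 hat2Δhif1Δ and strains with histone H4 lysines 5 and 12 changed to glutamine (G0 H4K5,12Q) or arginine (G0 H4K5,12R). The paper harvested the starved cells in rich medium under the conditions of its turnover experiments and labels them G0, t = 3d. In those experiments β-estradiol was added to starved cells to switch the H3 tag. That it was added to the array cultures is not stated outright. The growing and the starved strains therefore differed in medium, in markers and in the RNA isolation protocol as well as in growth state. They may also have differed in β-estradiol and the tag switch, and all these cannot be told apart.

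The deleted genes read low where the labels place the deletion: HAT1, HAT2 and HIF1 stood between -3.33 and -1.91 in the mid-log deletion arrays and between 0.02 and 0.21 in the other mid-log arrays. In starved arrays the deleted genes stood between -3.12 and -1.33, but HAT1 was also low, between -1.21 and -0.71, in starved strains that kept it. The value of -1.33 was HIF1 in array b of G0 hif1Δ (array a was at -2.55), whose 2 arrays also differed more over the 32 genes (median difference 0.43) than those of any other strain. The labels name BY4742 for every sample, but 5 a-specific genes had a median of 4.12 in the RITE arrays and 4.65 in the starved arrays against 0.00 in the mid-log NuB4 arrays. The medians of 4 alpha-specific genes were -3.97, -2.38 and -0.12 in the same order. By most of these genes the RITE and starved strains read as MATa. SAG1, an alpha-specific gene, was not low throughout the starved arrays (-0.88 to 1.37, median -0.04). A spot for ATG33 held reference signal on all 14 mid-log NuB4 arrays and on the starved double mutant and H4 mutant arrays, and not on the others. The labels name no array set, so arrays with and without this signal are a split drawn from the data after they were seen. All 32 genes were above background on all 36 arrays in both channels, and their brightest spot (27208 units) was well below the brightest on the arrays (65321). Probe sequences were not examined, so cross-hybridisation between CYC1 and CYC7, between COX5A and COX5B, or between SDH genes and their paralogs could not be assessed.

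**Figure D1:**
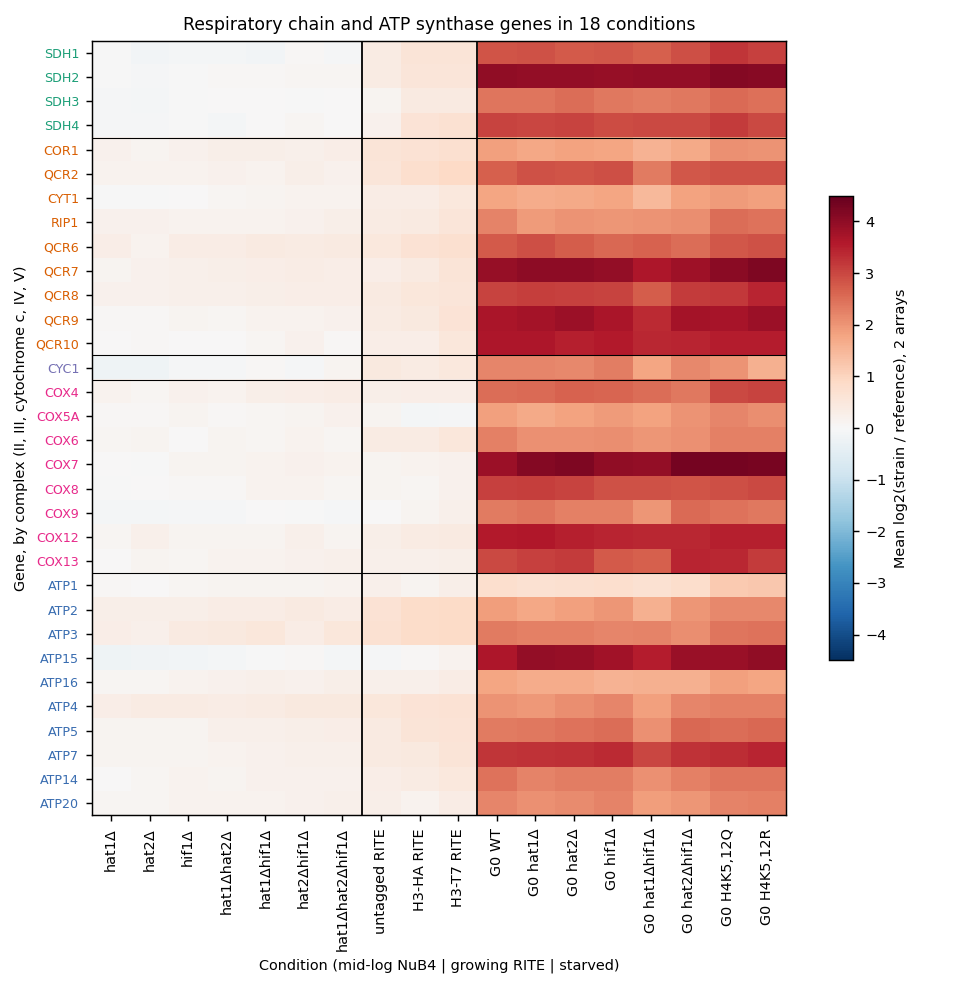
Mean log2 strain/reference ratio of the 2 arrays (colour) for 32 genes (rows, grouped and coloured by complex) in 18 conditions (columns; mid-log NuB4 strains, growing RITE strains, starved strains). The starved columns are red throughout, from 0.68 for ATP1 in G0 hat1Δ to 4.32 for COX7 in G0 hat2Δhif1Δ, and the growing columns lie between -0.19 and 0.89.

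To ask how the respiratory chain differed in starved cells, G0 WT was compared with the 3 growing RITE strains. All 32 genes were higher in G0 WT, at adjusted p of 4.4e-06 or less (limma, Benjamini-Hochberg over all probes), where 41.8% of all probes were higher and 40% lower, and 51.1% lay above 0. The median difference over the 32 genes was 2.11 on the log2 scale, against 0.01 over all probes. By complex the median was 2.48 for complex IV, 2.42 for complex II, 2.13 for complex III, 1.78 for CYC1 and 1.67 for complex V. Within each of complexes II, III, IV and V the genes spanned a wider range than these medians did.

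**Figure D2:**
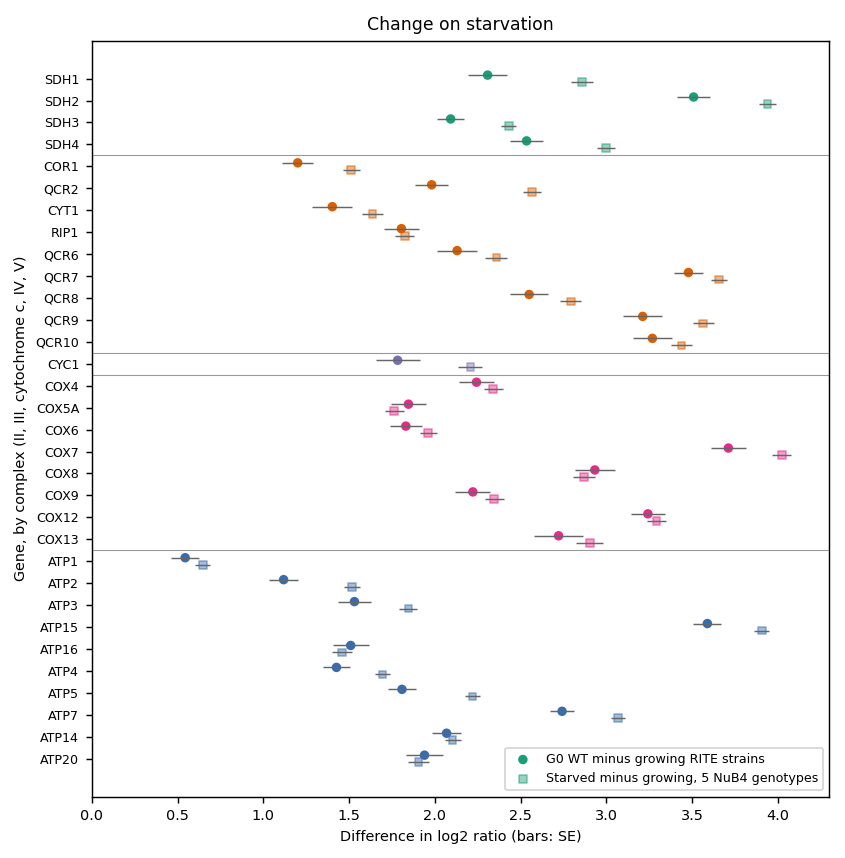
Difference in log2 ratio (x axis, bars are SE) for each gene (y axis), coloured by complex, for G0 WT minus growing RITE strains (circles) and for starved minus growing strains over 5 matched NuB4 genotypes (squares). Every point lies above 0, and complex V runs from ATP1 (0.54 and 0.65) to ATP15 (3.59 and 3.91).

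Complex II oxidises succinate and is shared with the citric acid cycle. SDH2, its iron-sulfur subunit, was at 3.98 and 4.01 in the G0 WT arrays and at 0.27 to 0.73 (median 0.47) in the 6 RITE arrays, a difference of 3.51 ± 0.09 (SE) or 11.4-fold. SDH3, a membrane anchor subunit, rose least (SDH1 with the authors' ratios, 2.39), from 0.05 to 0.57 (median 0.30) in the RITE arrays to 2.41 and 2.40 in G0 WT (2.09 ± 0.08). The groups did not overlap for either gene. The flavoprotein gene SDH1 rose by 2.31 ± 0.11 and the other anchor gene, SDH4, by 2.53 ± 0.10.

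Complex III passes electrons from ubiquinol to cytochrome c. QCR7, a small subunit on the matrix side, rose most except with each array centred on its median, where QCR10 did (2.60): the G0 WT arrays read 3.95 and 3.86 and the RITE arrays 0.22 to 0.58 (median 0.42), a difference of 3.48 ± 0.08 (11.1-fold). COR1, a core protein, rose least (QCR2 with the authors' ratios, 1.42), from 0.45 to 0.80 (median 0.69) to 1.90 and 1.79 (1.20 ± 0.09, 2.30-fold). The subunits that carry the redox centres encoded in the nucleus, CYT1 (cytochrome c1) and RIP1 (the Rieske protein), rose by 1.40 ± 0.12 and 1.80 ± 0.10, and QCR2, the other core protein, by 1.98 ± 0.10 (1.17 with print-tip loess). The small subunits QCR6, QCR8, QCR9 and QCR10 rose by 2.13, 2.55, 3.21 and 3.27. In this comparison all 5 small subunits thus rose more than the 4 larger ones. The exception was QCR6, which fell below RIP1 with print-tip loess, median centring or the authors' ratios. Over the 5 matched genotypes compared below the order did not hold, as QCR6 (2.36) lay below QCR2 (2.57).

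CYC1, the main cytochrome c, was at 2.42 and 1.99 in G0 WT and 0.14 to 0.64 (median 0.46) in the RITE arrays (1.78 ± 0.13, 3.44-fold). The 2 G0 WT arrays stood apart by more than for most genes, and both lay above every RITE array. The minor isoform CYC7, better known from hypoxic and stressed cells, rose by 2.36 ± 0.20.

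Complex IV, the cytochrome c oxidase, has its catalytic core encoded in mitochondria and small subunits encoded in the nucleus. COX7 rose most of all 32 genes with loess over whole arrays, from 0.02 to 0.29 (median 0.15) in the RITE arrays to 3.88 and 3.85 in G0 WT (3.71 ± 0.10, 13.1-fold). COX6 rose least in the complex (COX9 with the authors' ratios, 2.06, and COX5A in some fits that left out arrays), from 0.21 to 0.65 (median 0.40) to 2.33 and 2.19 (1.83 ± 0.09, 3.56-fold), next to COX5A at 1.85 ± 0.10. The other subunits lay between: COX9 2.22, COX4 2.24, COX13 2.72, COX8 2.93 and COX12 3.24. COX5B, the hypoxic alternative to COX5A, differed by 0.19 ± 0.10 and did not pass the test (adjusted p = 0.093). It ranged from 0.06 to 0.91 (median 0.56) in the RITE arrays. Its median was 0.66 in the 16 starved arrays and -0.05 in the 14 mid-log NuB4 arrays. Over the 5 matched genotypes compared below, COX5B and CYC7 were both higher, by 0.58 or more.

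Complex V showed the widest spread, and most of it lay within the catalytic F1 head. ATP1, the alpha subunit, rose least of all 32 genes except with median centring, where ATP2 did (0.29, against 0.67 for ATP1), from 0.03 to 0.32 (median 0.23) in the RITE arrays to 0.78 and 0.73 in G0 WT (0.54 ± 0.08, 1.46-fold). ATP15, the small epsilon subunit of the same head, rose from -0.12 to 0.24 (median 0.06) to 3.72 and 3.58 (3.59 ± 0.08). Neither gene's groups overlapped. ATP2 (beta), ATP3 (gamma) and ATP16 (delta) rose by 1.12 ± 0.08, 1.53 ± 0.10 and 1.51 ± 0.11. Of the peripheral stalk genes, ATP7 rose by 2.74 ± 0.07, ATP14 by 2.07 ± 0.08, ATP5 by 1.81 ± 0.08 and ATP4 by 1.43 ± 0.08, and ATP20, a subunit of the dimer interface, by 1.94 ± 0.11.

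The sizes of these changes and the order of the genes depended on the scaling, while all 32 genes passed under each alternative. The highest gene was COX7 as given above, SDH2 with median centring (3.09) and without array a of G0 WT (3.52, against 3.51), and QCR7 with print-tip loess (3.90) and the authors' ratios (4.07). ATP2 ran from 0.29 with median centring to 1.89 with the authors' ratios. With median centring ATP3, ATP5 and ATP7 rose by 0.98, 0.99 and 1.78, and with print-tip loess ATP16 rose by 0.77.

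Starved and growing strains of the same NuB4 genotype were compared next, over hat1Δ, hat2Δ, hif1Δ, hat1Δhif1Δ and hat2Δhif1Δ. All 32 genes were again higher in the starved strains, with a median of 2.35 against 0.01 over all probes, where 46.5% of all probes were higher and 45.3% lower, and 50.8% lay above 0. The medians by complex were 2.93 for complex II, 2.61 for complex IV, 2.57 for complex III, 2.21 for CYC1 and 1.87 for complex V. The extremes were ATP1 at 0.65 ± 0.04 and COX7 at 4.02 ± 0.05, but ATP2 (0.47) and SDH2 (3.62) with median centring, and the highest was QCR7 with print-tip loess (4.13) and the authors' ratios (4.29). These growing strains were MATα and the starved ones MATa, and mating type and growth state cannot be told apart in this comparison. In the 2 double mutants alone, whose starved and growing arrays both held the ATG33 signal, the 32 genes were higher with a median of 2.23.

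Over all arrays, no gene of the 32 overlapped between starved and growing cells: the lowest of 16 starved arrays lay above the highest of 20 growing arrays for 32 of 32 genes, and for 26.3% of all probes. The gap was narrowest for ATP1 (0.16) and widest for COX7 (3.37). ATP1 ranged from 0.48 to 1.27 (median 0.79) in the starved arrays, and COX7 from 3.67 to 4.56 (median 4.08).

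The rise tended to be larger for shorter genes, a relation looked for after the values were seen. Across the 32 genes, Spearman's rho between gene span (start to stop codon with introns, RefSeq R64) and the change in G0 WT was -0.61, against -0.03 across the 5266 probes with a span. It was -0.83 in complex III (9 genes), -0.83 in complex V (10 genes) and -0.48 in complex IV (8 genes; -0.05 with the authors' ratios), and across the 32 genes it was -0.50 in the comparison over 5 genotypes. The 16 shorter genes (180 to 462 bp) had a median change of 2.64 and the 16 longer ones (468 to 1923 bp) of 1.81. The 546 probes of genes no longer than the shorter group's longest had a median change of 0.12. Among the longer genes SDH2 (801 bp) rose by 3.51 and SDH1, the longest at 1923 bp, by 2.31. Genes are not independent replicates, so these are descriptions. Spearman's rho between mean spot intensity and the change was 0.22 across the 32 genes and -0.18 across all probes.

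**Figure D3:**
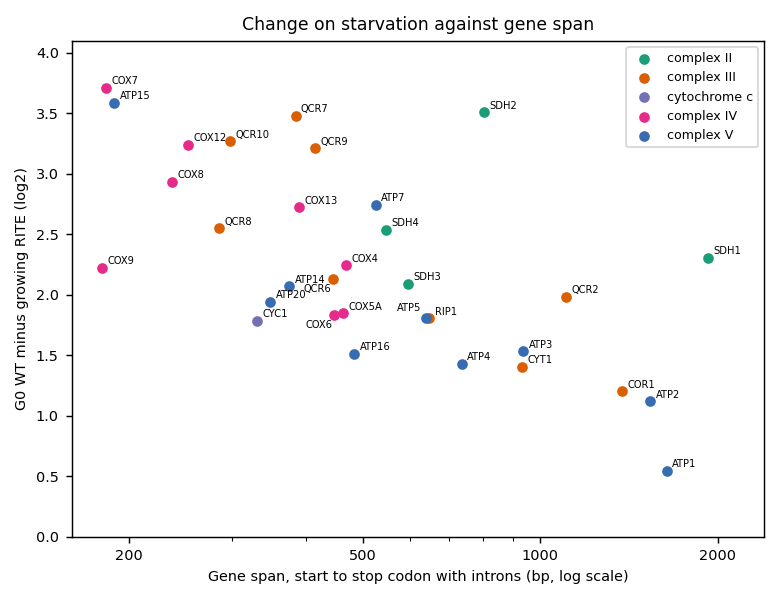
Change in G0 WT against the growing RITE strains (y axis, log2) by gene span (x axis, bp, log scale) for the 32 genes, coloured by complex. COX7 (183 bp) and ATP15 (189 bp) sit at the top left and ATP1 (1638 bp) at the bottom right.

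Genes around the respiratory chain were read in the same comparison of G0 WT with the RITE strains, where 41.8% of all probes were higher and 40% lower. Of 7 further ATP synthase genes 7 rose, with a median of 2.68; they included STF1 (3.53 ± 0.10) and INH1 (3.10 ± 0.11), which encode inhibitors of ATP hydrolysis by the enzyme. Of 6 genes for dehydrogenases that feed the chain 6 rose, from NDE1 (0.51 ± 0.11) to NDE2 (3.33 ± 0.10), both external NADH dehydrogenases, and NDI1, the internal enzyme, rose by 1.85 ± 0.11. Of 11 citric acid cycle genes 10 rose, CIT1 (citrate synthase) most at 3.43 ± 0.10, and LSC1, a succinyl-CoA ligase subunit, fell by 0.23 (SE 0.07). Its partner LSC2 rose by 2.54 ± 0.07. The direction for LSC1 depended on the growing strains. Its median was 0.28 in the 16 starved arrays, 0.52 in the 6 RITE arrays and -0.04 in the 14 mid-log NuB4 arrays. Over the 5 matched genotypes all 11 citric acid cycle genes were higher, where 46.5% of all probes were.

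The 28 assembly factors moved less. Of these, 20 rose and 5 fell, where 41.8% of all probes were higher and 40% lower, and the median was 0.38. The largest rise was in CBP4 (1.65 ± 0.11), a complex III factor. The largest fall was in COX10 (by 0.69, SE 0.05), a haem A synthesis enzyme. Of 6 regulators 5 rose, where 41.8% of all probes did, HAP4 by 3.61 ± 0.12. HAP4 was at 3.34 to 4.02 (median 3.86) in the 16 starved arrays and at 0.00 to 0.52 (median 0.28) in the 6 RITE arrays. In the 14 mid-log NuB4 arrays, which are not in this comparison, it was at -0.21 to 0.03 (median -0.09). HAP3 rose by 0.74 ± 0.06, and HAP2, at 0.07 ± 0.09, did not pass the test. The smaller rises depended on the growing strains. HAP3 had medians of 0.35 in the starved, -0.21 in the RITE and 0.14 in the mid-log NuB4 arrays. Those of HAP1 were -0.23, -0.43 and -0.20. Over the 5 matched genotypes 5 of the 6 regulators were higher and 1 lower, where 46.5% and 45.3% of all probes were.

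The subunits encoded in mitochondrial DNA did not move as 1 group. OLI1, ATP8 and ATP6, which encode membrane subunits of the ATP synthase, rose by 1.74 ± 0.13, 2.06 ± 0.18 and 1.01 ± 0.08, and COX1 by 0.26 ± 0.04. COX2 differed by 0.01 ± 0.06, COX3 by -0.01 ± 0.03 and COB by 0.05 ± 0.03, and none of these 3 passed the test. The COB probe was above background on 0 of 36 arrays and the COX3 probe on 29 of 36 in the strain channel and 18 of 36 in the reference channel, so their small differences are not a measure of their transcripts. The ATP6 probe was above background on 35 of 36 arrays in the strain channel and 26 of 36 in the reference channel. By mean intensity COX1, COX2 and ATP6 lay at percentiles 8.4, 9.6 and 9.7 of all probes, ATP8 at 29.0 and OLI1 at 92.6. Whether probe brightness bears on the differences between these genes was not tested. COX2 had medians of -0.22 in the starved, -0.16 in the RITE and 0.01 in the mid-log NuB4 arrays. Over the 5 matched genotypes 4 of these 7 genes were higher and 1 lower, where 46.5% and 45.3% of all probes were.

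The effect of the NuB4 mutations in starved cells was then measured against G0 WT. In none of the 7 starved mutants did any of the 32 genes pass the test (limma), higher or lower; the numbers at an unadjusted p under 0.05 were 1 for G0 hat1Δ, 1 for G0 hat2Δ, 0 for G0 hif1Δ, 6 for G0 hat1Δhif1Δ, 1 for G0 hat2Δhif1Δ, 6 for G0 H4K5,12Q and 7 for G0 H4K5,12R. Few probes passed at all: 0% higher and 0.0157% lower for both G0 hat1Δ and G0 hat2Δ, 0% and 0.329% for G0 hif1Δ, 0.0157% and 0.047% for G0 hat1Δhif1Δ, 0.0939% and 0.0626% for G0 hat2Δhif1Δ, 0.219% and 0.376% for G0 H4K5,12Q, and 1.61% and 1.63% for G0 H4K5,12R. The SE of a single gene ran from 0.10 to 0.23. For the numbers at an unadjusted p under 0.05, here and below, the share of all probes was not counted.

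In the single mutants the median of the 32 genes was 0.01 for G0 hat1Δ, -0.04 for G0 hat2Δ and -0.00 for G0 hif1Δ, and 17, 13 and 15 genes lay above 0, where 51.7%, 48.3% and 49.1% of all probes did. These balances were not stable. With median centring 18, 27 and 31 genes lay above 0, with medians of 0.08 for G0 hat2Δ and 0.14 for G0 hif1Δ. The median for G0 hat1Δ was 0.19 without array a of that strain and -0.21 without array b, and that for G0 hif1Δ was -0.15 without array a and 0.14 without array b. The nearest to a call were ATP15 in G0 hat1Δ (0.31 ± 0.11, adjusted p = 0.98) and in G0 hat2Δ (0.26 ± 0.11, adjusted p = 0.67), and RIP1 in G0 hif1Δ (-0.25 ± 0.15, adjusted p = 0.55). In G0 hat2Δhif1Δ the median was -0.04 (-0.13 without array a, 0.07 without array b), 15 genes lay above 0 (21 with median centring), where 50.1% of all probes did, and COX7 was nearest to a call (0.46 ± 0.16, adjusted p = 0.33). Without array a of G0 hif1Δ, COX8 (-0.59 ± 0.13, adjusted p = 0.046) and ATP16 (-0.56 ± 0.13, adjusted p = 0.048) passed as lower, on array b alone. Without array b, the array with the highest HIF1 value, the difference for RIP1 was 0.000288.

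In G0 hat1Δhif1Δ 31 of 32 genes lay below G0 WT, with a median of -0.22, where 48.1% of all probes lay above 0. The medians were -0.08 for complex II, -0.29 for complex III, -0.19 for complex IV and -0.20 for complex V, and CYC1 was at -0.45 ± 0.20. ATP14, a peripheral stalk subunit, was nearest to a call (-0.40 ± 0.14, adjusted p = 0.32). With each array centred on its median in place of loess, 9 of the 32 genes lay above 0 and the median was -0.08. The arrays of this strain held the ATG33 signal and those of G0 WT did not, and the strain and this difference between arrays cannot be told apart.

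In the 2 H4 mutants the balance lay the other way. In G0 H4K5,12Q 27 of 32 genes lay above G0 WT (median 0.14), and in G0 H4K5,12R 25 of 32 (median 0.16), where 51.8% and 50.1% of all probes lay above 0. With median centring 32 and 31 genes lay above 0, and the medians were 0.31 and 0.27. ATP1 was nearest to a call in both. It was at 1.10 and 1.25 in G0 H4K5,12Q, 1.17 and 1.27 in G0 H4K5,12R and 0.78 and 0.73 in G0 WT, differences of 0.42 ± 0.13 (adjusted p = 0.15) and 0.47 ± 0.13 (adjusted p = 0.074). All 4 H4 mutant arrays lay above both G0 WT arrays and above the other 10 starved arrays, the highest of which was 0.89.

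CYC1, named after its values were seen, went the opposite way in G0 H4K5,12R, where array a stood just above the lower of the G0 WT arrays (2.42 and 1.99) and array b at 1.22, so that the groups overlapped narrowly (-0.60 ± 0.20, adjusted p = 0.13). With all 36 arrays in 1 fit, ATP1 passed in both H4 mutants (adjusted p = 0.010 and 0.0030) and CYC1 in G0 H4K5,12R (adjusted p = 0.013). As for the double mutants, the strain and the presence of the ATG33 signal cannot be told apart here.

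**Figure D4:**
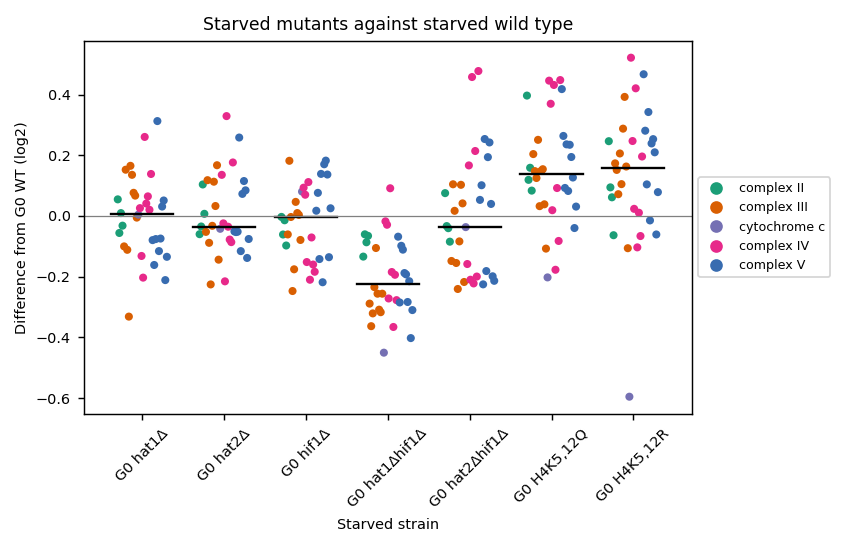
Difference from G0 WT (y axis, log2) for the 32 genes (points, coloured by complex) in 7 starved mutants (x axis), with the median as a line. The medians are -0.22 in G0 hat1Δhif1Δ and 0.14 and 0.16 in the H4 mutants, and CYC1 is the lowest point in G0 H4K5,12R at -0.60.

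In mid-log cells each deletion was measured on the 3 matched backgrounds, 6 arrays with the deletion against 6 without. HAT1 deletion raised 2 of the 32 genes and lowered 0, where 2.32% of all probes were higher and 2.38% lower (148 and 152 probes, against 41 and 27 with median centring). ATP3 was at 0.41 to 0.54 (median 0.49) with the deletion and 0.19 to 0.48 (median 0.35) without it, a difference of 0.15 ± 0.03 (adjusted p = 0.034), and the groups overlapped. COR1 was at 0.23 to 0.33 (median 0.27) and 0.11 to 0.26 (median 0.19), a difference of 0.08 ± 0.02 (adjusted p = 0.049). Both calls were near the threshold. COR1 did not pass in 19 of 19 alternatives, which were the 12 arrays left out in turn and each change of processing. With the authors' ratios its difference was 0.05. ATP3 no longer passed without either array of hat1Δhif1Δ, hat2Δ or hat1Δhat2Δhif1Δ, without array a of hat2Δhif1Δ, or without array b of hif1Δ or hat1Δhat2Δ, with a lowest difference of 0.13. The median over the 32 genes was 0.04, with 27 of 32 above 0, where 49.8% of all probes were.

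HAT2 deletion changed 0 of the 32 genes by the test (limma, 11 at an unadjusted p under 0.05), where 0% of all probes were higher and 0.0157% lower. ATP5 was nearest to a call (0.09 ± 0.03, adjusted p = 0.96). Of the 32 genes 31 lay above 0, with a median of 0.05, where 49.8% of all probes lay above 0.

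HIF1 deletion raised 1 of the 32 genes, COX4, where 0.204% of all probes were higher and 0.125% lower. COX4 was at 0.15 to 0.39 (median 0.31) with the deletion and 0.04 to 0.25 (median 0.13) without it, a difference of 0.15 ± 0.02 (adjusted p = 0.017), overlapping in part. It did not pass without array b of hat1Δ or of hat1Δhif1Δ, or without either array of hat2Δ (0.14 to 0.15). With the authors' ratios COX4 differed by 0.10 and did not pass either. All 32 genes lay above 0, with a median of 0.09, where 50.5% of all probes lay above 0. Of the 32 genes 23 had an unadjusted p under 0.05, a cut at which the share of all probes was not counted. The medians were similar between complexes: 0.07 for complex II, 0.08 for complex III, 0.09 for complex IV and 0.09 for complex V, and CYC1 had the largest difference (0.19 ± 0.04, adjusted p = 0.059). By background, the median over the 32 genes was 0.09 on hat1Δ, 0.11 on hat2Δ and 0.06 on hat1Δhat2Δ, with 30, 31 and 26 of 32 genes above 0. The corresponding medians of HAT1 deletion were 0.06 on hat2Δ, 0.06 on hif1Δ and 0.02 on hat2Δhif1Δ. With each array centred on its median, 22 of the 32 genes passed for HIF1 deletion (257 probes higher and 696 lower, against 13 and 8 with loess), and 0 genes passed without the dye term or with all 36 arrays in 1 fit.

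Against the reference, which is 1 control RNA whose own spread is not in the test, more genes passed. The reference was shared by all 7 strains, so their values are given side by side. The genes higher and lower numbered 15 and 2 in hat1Δ (21.6% and 20.4% of all probes), 18 and 2 in hat2Δ (24.5% and 23.2%), 18 and 1 in hif1Δ (24.9% and 22.6%), 20 and 0 in hat1Δhat2Δ (25.2% and 23.5%), 22 and 0 in hat1Δhif1Δ (24.8% and 22.9%), 25 and 0 in hat2Δhif1Δ (22.8% and 21.6%) and 24 and 0 in hat1Δhat2Δhif1Δ (25.1% and 24.3%). The medians were 0.07, 0.10, 0.12, 0.12, 0.17, 0.19 and 0.20 in that order (0.03 in hat1Δ and 0.04 in hat2Δ with median centring), and 23, 23, 25, 27, 30, 29 and 29 genes lay above 0, where 49.3%, 48.7%, 49.5%, 49.5%, 49.1%, 48.7% and 48.9% of all probes did. Without 1 array the higher genes fell to 6 in hat2Δ (without array a), 8 in hat1Δ (without array a) and 8 in hif1Δ (without array b).

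The complexes differed in these counts. Of the 4 complex II genes 0 passed in any of the 7 strains (1 at an unadjusted p under 0.05 in hat2Δ and 1 in hat1Δhif1Δ), with medians from -0.08 to 0.07. Of the 9 complex III genes 6 to 9 were higher (medians 0.14 to 0.27), of the 8 complex IV genes 2 to 7 (0.05 to 0.16), and of the 10 complex V genes 7 to 9 (0.10 to 0.25). ATP3 was the highest of the 32 genes in 5 of the 7 strains, from 0.31 ± 0.04 in hat1Δ to 0.52 ± 0.04 in hat1Δhat2Δhif1Δ. In hat2Δ and hat2Δhif1Δ the highest was ATP4 (0.35 ± 0.04 and 0.43 ± 0.04). ATP3, CYC1 and ATP15 were picked out of these strains after their values were seen.

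CYC1 and ATP15 were the exceptions. CYC1 was lower in hat1Δ (-0.19 ± 0.05, adjusted p = 0.0066) and hat2Δ (-0.19 ± 0.05, adjusted p = 0.0055) and higher in hat1Δhat2Δhif1Δ (0.13 ± 0.05, adjusted p = 0.034). ATP15 was lower in hat1Δ (-0.19 ± 0.05), hat2Δ (-0.15 ± 0.05) and hif1Δ (-0.13 ± 0.05). The call of ATP15 was lost without either array of hat1Δ or of hat2Δ and without array a of hif1Δ (-0.06), and that of CYC1 without either array of hat1Δ, without array b of hat2Δ, and without array b of the triple mutant.

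**Figure D5:**
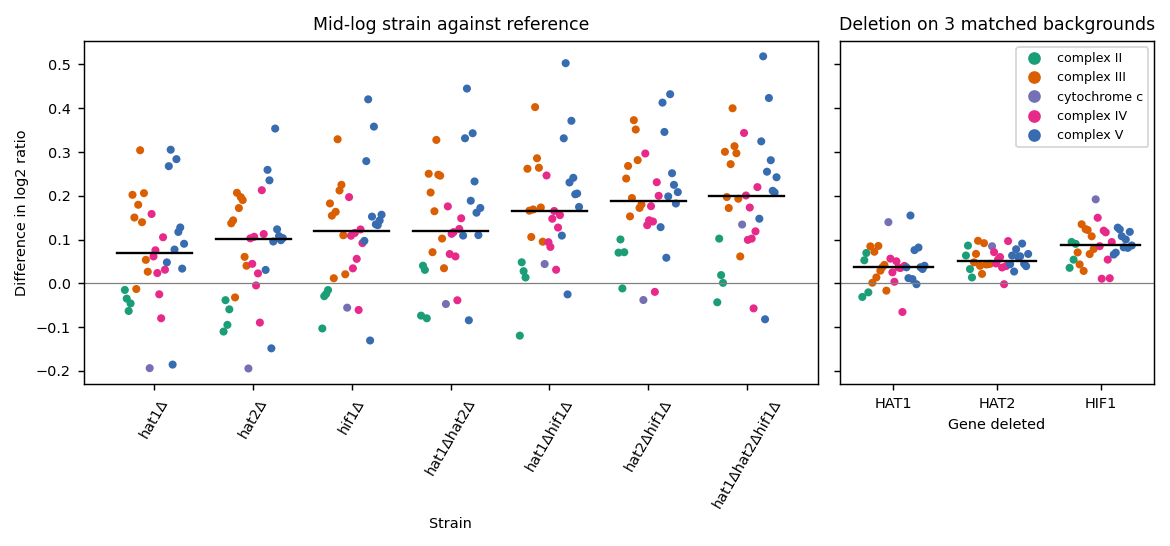
Difference in log2 ratio (y axis) of the 32 genes (points, coloured by complex; lines are medians) for 7 mid-log strains against the reference (left) and for each deletion on 3 matched backgrounds (right). The medians on the left run from 0.07 in hat1Δ to 0.20 in hat1Δhat2Δhif1Δ, and those on the right are 0.04, 0.05 and 0.09.

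Whether HIF1 deletion acted differently in starved and in mid-log cells was tested as an interaction on the hat1Δ and hat2Δ backgrounds. Of the 32 genes 0 passed (limma, 12 at an unadjusted p under 0.05), where 0.0157% of all probes were higher and 0% lower. The median was -0.21 (-0.12 without array b of G0 hat1Δ, -0.30 without array a), and 30 of 32 genes lay below 0, where 47.6% of all probes lay above 0. QCR7 was nearest to a call (-0.44 ± 0.10, adjusted p = 0.26). Its starved arrays read 3.58 and 3.71 in G0 hat1Δhif1Δ against 4.01 and 4.07 in G0 hat1Δ, and 3.92 and 3.71 in G0 hat2Δhif1Δ against 3.91 and 4.12 in G0 hat2Δ. Without array a of G0 hat1Δ, 6 genes passed as lower: CYC1 (-0.63 ± 0.10), QCR6 (-0.53 ± 0.13), QCR7 (-0.47 ± 0.11), COX4 (-0.47 ± 0.08), ATP20 (-0.42 ± 0.09) and ATP14 (-0.37 ± 0.08). How many of all probes passed without that array was not counted. On the starved side the double mutant arrays held the ATG33 signal and the single mutant arrays did not, and this cannot be told apart from HIF1 deletion. The starved and mid-log strains also differed in strain background, mating type, medium and RNA isolation. A difference in the effect of HIF1 deletion by growth state cannot be told apart from one by these.

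The growing RITE strains stood above the reference in most of these genes, with medians of 0.32 for the untagged, 0.39 for the H3-HA and 0.52 for the H3-T7 strain. Against the untagged strain, 4 of the 32 genes were higher and 2 lower in H3-HA, where 25.3% and 19.3% of all probes were, and 12 were higher and 1 lower in H3-T7, where 22.7% and 15.4% were. Above 0 lay 25 genes in H3-HA and 31 in H3-T7, where 48.6% and 49.4% of all probes did. SDH4, a complex II anchor, had the largest difference in both, with 0.42 ± 0.07 (adjusted p = 0.00056) in H3-HA and 0.49 ± 0.07 (adjusted p = 0.00025) in H3-T7. SDH3, the other anchor, was higher in both (0.29 ± 0.07 and 0.27 ± 0.07), and of the small complex III subunits QCR6 and QCR8 passed in both. COX5A was lower in both, at -0.16 and -0.04 in H3-HA and -0.03 and -0.04 in H3-T7 against 0.06 and 0.18 in the untagged arrays (-0.22 ± 0.05 and -0.16 ± 0.05), with no overlap.

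In H3-T7, QCR2, QCR7, QCR9, QCR10, COX9, ATP5, ATP7 and ATP14 also passed, by 0.18 to 0.35; whether the tags differed from each other was not tested. These calls depended on single arrays and on the scaling. Without array b of the untagged strain 1 gene remained higher in each of H3-HA and H3-T7, and without array a of H3-HA 16 were higher there. With each array centred on its median, 2 and 1 genes were higher, 7 and 20 lay above 0, and the median over the 32 genes was -0.07 in H3-HA and 0.02 in H3-T7. Over all probes that scaling gave 1187 higher and 1343 lower in H3-HA and 1023 and 1181 in H3-T7, against 1619 and 1234 and 1447 and 985 with loess.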

How the data were processed

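RNA was hybridised to two-colour arrays in a dye swap against 1 reference pool. The deposited scanner files give raw spot intensity for both dyes; a table of log2 ratios, normalized by the authors with limma (version 2.12.0) per the labels' processing notes, served as an alternative. The authors' table of averaged ratios and p-values was not used. Spots (15552 per array, 2 per probe) were background-corrected (normexp, offset 50) and loess-normalized with control spots at weight 0, turned to strain/reference and averaged per probe. Models with a term per strain and a dye term within each experiment were fitted in limma 3.58.1 (R 4.3.3), with Benjamini-Hochberg adjustment over 6388 probes and a threshold of 0.05. Starvation was fitted on all 36 arrays, starved mutants on the 16 starved arrays, mid-log deletions on the 14 mid-log arrays and tags on the 20 growing arrays. The number of arrays, 2 per strain, limits the precision.

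The rule for the 32 genes uses symbols only, but they and the other gene lists were chosen with earlier results of these data known. Of 111 listed genes 108 were found, SDH5 under its older name EMI5; 5326 probes had 1 symbol and 1062 none. All 32 genes are described; every-array values are given per complex for the largest and smallest change on starvation, and elsewhere for genes that passed or came nearest. Above background means a spot mean over 2 background SD above the local background median. The script was tested on simulated data. Dye orientation and replicate letter coincide, so the dye term is also the block for the letter. Arrays of the same letter deviated together from their strain means, with a median correlation of 0.59 in mid-log, 0.25 in RITE and 0.50 in starved arrays, and a lowest of 0.36, 0.15 and -0.22. No column of per-sample values was left unused outside the authors' own comparisons.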

Additional observations from a re-analysis of the deposited data

How the results depend on the processing

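In both starvation comparisons all 32 genes were higher and 0 lower under every alternative run, and on leaving out any array; the median ran from 1.69 (each array centred on its median) to 2.26 (untagged RITE strain only) for G0 WT and from 1.84 (median centring) to 2.53 (the authors' ratios) over 5 genotypes, and was 2.23 in the 2 double mutants alone, an alternative chosen after seeing the data. The smaller counts moved. An unchanged count could also hold other genes, as COR1 passed for HAT1 deletion under no alternative. Without background correction, HIF1 deletion raised 2 genes and H3-HA lowered 1. With print-tip loess, 1 gene was higher in G0 H4K5,12Q and 2 in G0 H4K5,12R, HAT1 deletion raised 1 and HIF1 deletion 2, 4 were lower in hat2Δ against the reference, and 0 were lower in H3-HA and in H3-T7. With median centring, HAT1 deletion raised 1 and HIF1 deletion 22, 8 were higher in hat1Δ and 8 in hat2Δ, 0 were lower in hif1Δ, and 2 were higher in H3-HA and 1 in H3-T7, where QCR8 (H3-HA) stood at -0.033 and ATP7 (H3-T7) at -0.026; over all probes 1444 were higher and 1995 lower in hat1Δhat2Δhif1Δ, against 1605 and 1553. With the dimmest probes left out (4791 kept), HIF1 deletion raised 3 and H3-HA lowered 1. With the authors' ratios, HIF1 deletion raised 3 (COX4 not among them), 2 were lower in hif1Δ and 1 in hat1Δhat2Δ, and 0 were lower in H3-HA and in H3-T7. With all 36 arrays in 1 fit, 1 gene was lower in G0 hat1Δhif1Δ, 1 higher in G0 hat2Δhif1Δ, 3 higher in G0 H4K5,12Q, 5 higher and 1 lower in G0 H4K5,12R, HAT1 and HIF1 deletion raised 0, and against the reference the higher genes numbered 4, 2, 5, 7, 8, 11 and 12 in the order hat1Δ, hat2Δ, hif1Δ, hat1Δhat2Δ, hat1Δhif1Δ, hat2Δhif1Δ and triple mutant, with 0 lower in the single mutants; H3-HA had 2 higher and 0 lower and H3-T7 1 and 0. Without the block for the replicate letter, HAT1 and HIF1 deletion raised 0, 1 gene was lower in hat1Δ, 11 were higher and 0 lower in hat2Δ, 0 were lower in hif1Δ, 1 was higher and 1 lower in H3-HA, and 4 were higher and 0 lower in H3-T7. The cause of these shifts was not tested. Of these alternatives, calls over all probes were counted for median centring only. The other counts, and those on leaving out arrays here and above, show how the calls moved. They cannot be read as an excess over all probes. Leaving out each array in turn gave 0 calls in the starved mutants except 0 to 2 lower in G0 hif1Δ, where RIP1 ranged from -0.49 to 0.000288; 0 to 3 higher and 0 to 1 lower for HAT1 deletion, 0 for HAT2 deletion and 0 to 4 higher for HIF1 deletion; 8 to 11 higher and 0 to 1 lower in hat1Δ, 6 to 11 and 0 to 1 in hat2Δ, 8 to 16 and 0 to 1 in hif1Δ, 14 to 18 and 0 to 2 in hat1Δhat2Δ, 16 to 17 higher in hat1Δhif1Δ, 21 to 22 in hat2Δhif1Δ and 18 to 22 in the triple mutant; 1 to 16 higher and 0 to 2 lower in H3-HA, 1 to 14 and 0 to 1 in H3-T7; and 0 to 6 lower for the interaction. The lone array then left is assumed to vary like the other strains. Among the starved arrays without the ATG33 signal (G0 WT, hat1Δ, hat2Δ and hif1Δ), 0 genes passed; the other starved mutants had no value there. The signal of the COB probe was too low for a level.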
